A study of Homo sapiens with 23 samples.

Results

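The keratin genes of the human genome lie mostly in a pair of gene clusters, and the loops at 54 of them are described here, out of 20033 protein-coding genes. Members were chosen by position: a loop was kept when either of its 5 kb bins overlapped the body of a listed keratin gene in hg38. Of these genes, 27 lie in the type I cluster on chromosome 17 (chr17:40697991-41624575) and 27 in the type II cluster on chromosome 12 (chr12:52168996-52952906). The chromosome 12 group holds 26 type II genes and KRT18, a type I gene that lies beside its partner KRT8 and is counted with the cluster where it sits. Loops at these genes numbered 32 of 7075 in the list labelled T0 and 55 of 9591 in the list labelled T30.

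Both lists come from T47D, an established human breast cancer line of luminal type that carries the progesterone receptor. HiChIP ligates DNA ends that are near each other in the nucleus and then pulls down the ligated fragments, here with an antibody against that receptor. T0 is 1 library with no agent named in its label. T30 is 1 library whose title reads PR5020; R5020, a synthetic progestin, is named in the treatment protocol, and neither the unit of 30 nor the dose of this library is stated. Before such experiments cells were held in medium without phenol red and with hormone-stripped serum, and then without serum, per the labels. The other 21 of the 23 samples of the series were not used here. With 1 library per condition no difference below has a replicate check, and each interval covers counting error only. A contact present in more cells and a stronger pull-down of the same contact cannot be told apart in these values, and the cell line could not be checked against marker levels because the lists hold no expression.

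The T0 list held 127457 contacts, which are read pairs joining 2 bins, and the T30 list held 135538. The sequencing depth behind either list is unknown. Listed loops were shorter in T30, with a median span of 80 kb against 190 kb in T0, and the lists ended at different p-values, 2.84e-05 in T30 and 0.000233 in T0. The part of these differences in the results below was not tested.

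Keratins are the intermediate filament proteins of epithelial cells. Each filament is built from pairs of a type I and a type II chain, so a cell type is often described by the pair it makes: KRT8 with KRT18, together with KRT19 and KRT7, in simple and luminal epithelium, and KRT5 with KRT14 in basal cells. Many other members of both clusters serve hair and skin, among them the hair keratins KRT31 to KRT40 and KRT81 to KRT86, the hair root sheath keratins KRT25 to KRT28 and KRT71 to KRT74, and KRT10 of the outer epidermis. The progesterone receptor binds DNA as a dimer at sites whose core is ACANNNTGT.

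The bin with most partners at a keratin gene held the whole of KRT37, a hair keratin gene, and its promoter. The promoters of its neighbours KRT38 and KRT36 lay wholly or partly in bins joined to it in T30, and the promoter of KRT35, another gene joined to it, holds the receptor core motif. These 4 windows are therefore shown, from RefSeq on GRCh38.p14, each covering 250 bases before the gene start and 50 after it on the minus strand of chromosome 17. Capitals mark the TATA motif TATAAA and, in KRT35, the core motif as well.

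KRT37 (chr17:41424536-41424835): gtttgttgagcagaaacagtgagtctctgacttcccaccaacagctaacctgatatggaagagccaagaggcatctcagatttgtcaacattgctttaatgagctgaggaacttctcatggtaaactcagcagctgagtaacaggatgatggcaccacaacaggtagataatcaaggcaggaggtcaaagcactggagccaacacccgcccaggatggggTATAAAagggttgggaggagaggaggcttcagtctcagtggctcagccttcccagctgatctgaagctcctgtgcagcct
KRT38 (chr17:41440934-41441233): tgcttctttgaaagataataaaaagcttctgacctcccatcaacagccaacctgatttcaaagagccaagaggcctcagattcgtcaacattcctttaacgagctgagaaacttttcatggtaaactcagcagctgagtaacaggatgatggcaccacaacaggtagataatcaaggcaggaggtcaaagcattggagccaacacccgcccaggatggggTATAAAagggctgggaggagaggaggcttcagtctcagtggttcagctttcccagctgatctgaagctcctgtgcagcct
KRT36 (chr17:41489861-41490160): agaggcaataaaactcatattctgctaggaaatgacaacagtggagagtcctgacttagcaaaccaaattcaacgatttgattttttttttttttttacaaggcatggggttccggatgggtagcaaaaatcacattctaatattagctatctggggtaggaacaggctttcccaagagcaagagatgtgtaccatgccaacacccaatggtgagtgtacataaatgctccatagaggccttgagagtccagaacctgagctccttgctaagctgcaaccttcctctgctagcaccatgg
KRT35 (chr17:41481102-41481401): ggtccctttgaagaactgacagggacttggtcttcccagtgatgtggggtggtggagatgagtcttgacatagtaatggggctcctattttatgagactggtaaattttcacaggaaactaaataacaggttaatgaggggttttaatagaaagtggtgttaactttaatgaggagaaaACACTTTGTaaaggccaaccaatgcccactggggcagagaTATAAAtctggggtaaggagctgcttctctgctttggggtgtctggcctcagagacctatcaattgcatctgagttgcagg

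The KRT37 and KRT38 windows were alike along most of their length. They matched at 236 of 300 bases when set side by side without gaps (78.7%), at 194 of the last 200 bases (97%), and in an unbroken run of 77 bases. Their TATA motif began 30 bases before the gene start in both. Over the 561 pairs of 34 keratin genes with a promoter entry, the median match was 26.3%, and the next pair, KRT33A and KRT31, reached 47%. The ligated reads of near-identical stretches can be hard to place, and how the mapping treated them is not given in the sources used here.

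Motifs were searched in the 38 keratin windows, the receptor motifs on both strands and TATAAA on the strand of the gene, since KRT40 and KRT85 have more than 1. ACANNNTGT, which reads the same on both strands, was found in 2 of 38 (KRT31 and KRT35), or 5.26%, beside 5.37% of 35116 promoter windows of all genes. The hexamer TGTTCT or its reverse complement AGAACA was found in 5 of 38 (KRT5, KRT74, KRT25, KRT28 and KRT9), or 13.2%, beside 14.8%. TATAAA was found in 19 of 38, or 50%, beside 7.33%. Neither receptor motif was in the KRT37, KRT38 or KRT36 window. No motif match is taken here as a bound site.

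The type I cluster had more listed loops in T30 than in T0, and KRT37 held most of the difference. Loops at its keratin genes numbered 17 in T0 (exact Poisson 95% interval 9.90 to 27.2) and 40 in T30 (28.6 to 54.5), a ratio of 2.35 (exact conditional binomial interval 1.30 to 4.43). KRT37 had 1 of the T0 loops and 19 of the T30 loops. Without loops at KRT37 the numbers were 16 and 21, a ratio of 1.31 (0.653 to 2.69). Loops of chromosome 17 with no end in the cluster gave 1.28 (1.16 to 1.42) and all loops of the lists 1.36 (1.31 to 1.40). Outside KRT37, the type I keratins thus had a ratio close to that of the rest of their chromosome, with an interval that includes 1.

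Contacts at the type I keratins summed to 289 in T0 and 724 in T30. A loop held 8 to 48 contacts in T0 with a median of 13, and 9 to 44 in T30 with a median of 15.5. The loops were long in T0, with a median span of 570 kb, and short in T30, with a median of 80 kb, while the longest spanned 805 kb in both. The shift was larger than that of the lists as a whole, and the difference between the shifts was not tested. Loops with both ends in the cluster numbered 10 of 17 in T0 (58.8%, exact binomial interval 32.9 to 81.6%) and 32 of 40 in T30 (80%, 64.4 to 91.0%). Loops that left the cluster numbered 7 and 8. Both ends lay in a keratin gene in 1 loop of T0 and 10 of T30, and 8 of those 10 had an end in KRT37.

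**Figure D1:**
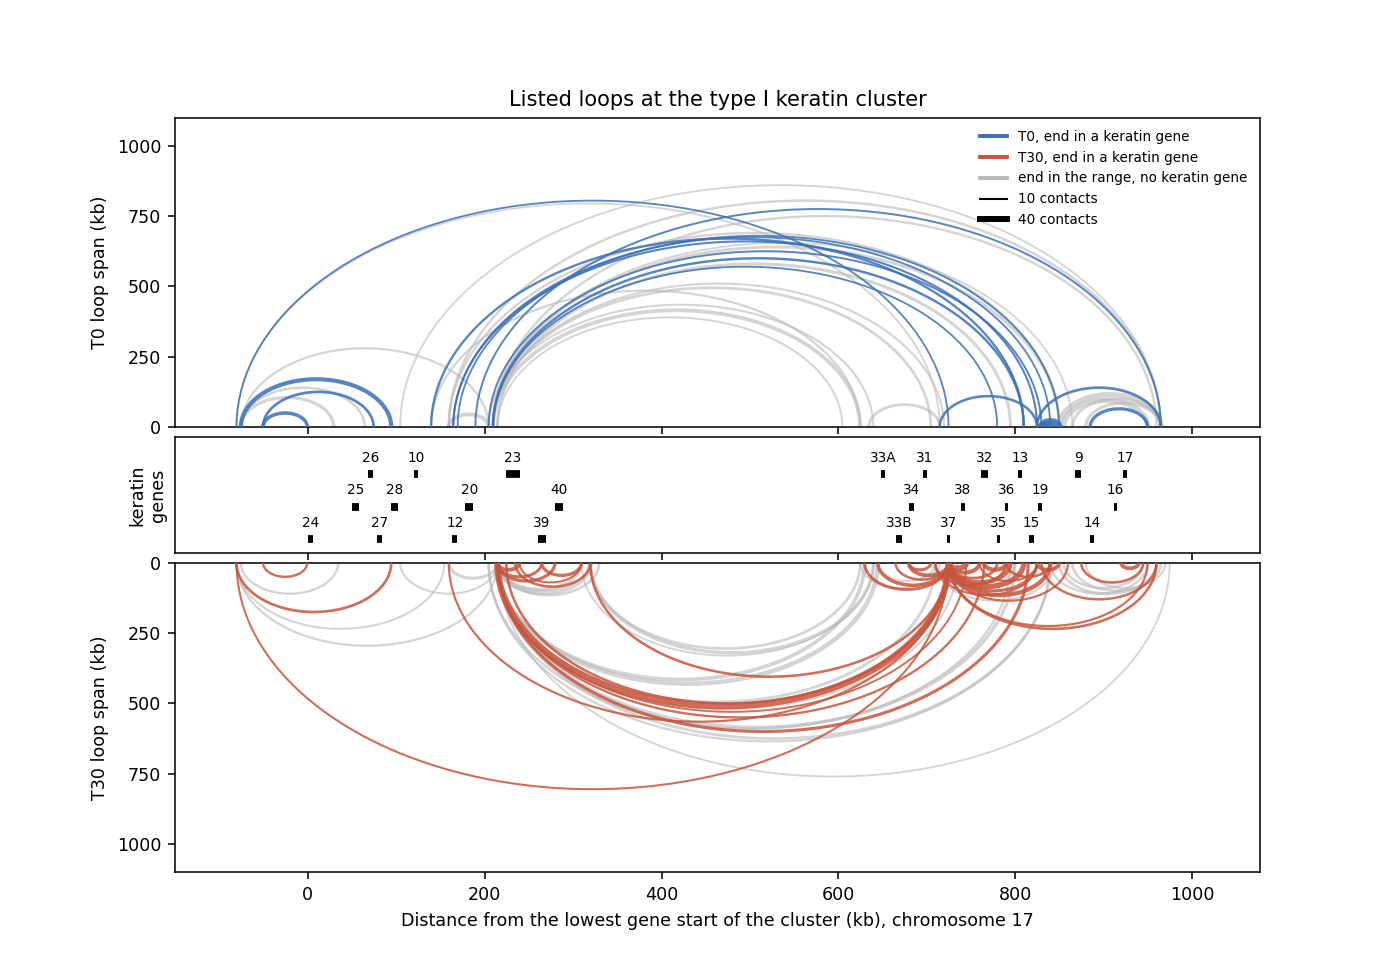
Listed loops at the type I keratin cluster, T0 above and T30 below. Arcs join the 2 bins of a loop along the distance from the lowest gene start (kb), arc height is the span (kb), line width grows with contacts, coloured arcs end in a keratin gene and grey arcs end in the range but in none. The 17 coloured T0 arcs have a median span of 570 kb, and the 40 of T30 a median of 80 kb, with 19 of them meeting at KRT37.

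KRT37 (chr17:41420547-41424585) encodes a type I hair keratin, and its body falls in the bin chr17:41420001-41425000. In T0 this bin had 1 listed partner, the bin at 40615001 beside SMARCE1, with 8 contacts. In T30 it had 19 partners and 391 contacts. The T0 partner was listed in T30 too, with 10 contacts. A gene was called past the fold when its partner bins differed at least 2-fold, counting 0 as 1, and by at least 3. KRT37 passed this rule with a difference of 18, where the median over all 6342 protein-coding genes with a loop in either list was 1, with a range of -12 to 33.

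The 19 partners of KRT37 lay on both sides, 9 below and 10 above it, at 20 to 805 kb with a median of 100 kb. Their contacts ran from 10 to 44 with a median of 17. A keratin gene lay in 8 of the partner bins and no protein-coding gene in 11. The 8 were hair keratins on either side of KRT37 and 3 others. KRT38 at 20 kb had 39 contacts, KRT32 at 35 kb had 25, KRT34 at 45 kb had 23, KRT35 at 55 kb had 16 and KRT33B at 60 kb had 13. KRT13, a keratin of stratified mucosa, had 35 at 85 kb, and the luminal keratin KRT19 had 18 at 100 kb. KRT23 at 500 kb had 14. Among these listed partners contacts did not fall steadily with distance: the partner with most contacts, 44, was the bin at 40910001, which lies 510 kb away. Only listed loops are seen here, so how contacts follow distance in general was not tested.

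These 19 loops were not all separate calls. The deposited lists merge near contacts, and the 19 came from 15 merged clusters, of which 1 gave 4 loops. That cluster joined KRT37 to the stretch from KRT36 to beyond KRT19 and summed to 342 contacts, the most at any type I keratin in T30. All 17 type I loops of T0 came from 17 merged clusters, and the 40 of T30 from 36.

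Nearby bins bear on the T0 value of KRT37. In T0 the bins 5, 10 and 20 kb below it had 1, 3 and 1 partners, outside the gene. In T30 the bin 15 kb below, over the pseudogene KRT41P, had 6 partners with 76 contacts, and the bin 5 kb below had 0. Pooling KRT37's bin with the bin on either side gave 2 partners in T0 and 19 in T30. With the gene widened by 10 kb on either side it had 4 and 20.

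The bin with most partners in the cluster in T30 was chr17:40910001-40915000, inside the long noncoding RNA gene LOC105371777 and 7700 bp from KRT23. It had 2 partners with 26 contacts in T0 and 20 partners with 372 contacts in T30. The neighbouring bin at 40905001 showed the opposite, with 8 partners and 105 contacts in T0 and 0 in T30. Pooled over 3 bins, the place around 40910001 had 10 partners in T0 and 20 in T30, and that around 40905001 had 14 and 21. The bins adjoin, so at bin level more partners and a move of 5 kb in the listed bin cannot be told apart. The pooled counts were higher in T30 at both, but the pooled places overlap and are not separate counts. Loops of the whole lists had a ratio of 1.36, and the pooled counts were not tested against it.

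Of the 20 partners of the 40910001 bin in T30, 7 held a keratin gene. Contacts were 44 with KRT37, 23 with KRT23, 19 with KRT40, 18 with KRT15, 17 with KRT39, 12 with KRT32 and 9 with KRT38. The KRTAP array, whose genes encode the keratin-associated proteins of the hair matrix, held 5 partners, including a bin at 41015001 with 34 contacts. The 40910001 bin and the KRT37 bin had 7 partner bins in common, 35% of the first and 36.8% of the second. Among these were the KRT38 bin, the bin at 41015001 and the bin at 41535001, which lies 6693 bp from KRT19. Besides sharing partners, the pair were partners of each other.

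Hubs, defined as bins with at least 5 partners in or joined to the range, numbered 4 in T0 and 6 in T30 on chromosome 17, and no bin was a hub in both. Bins there with any partner numbered 40 in T0 and 57 in T30, with 28 in both. How often a bin of the whole lists was a hub, in 1 list or in both, was not counted. The T0 hubs were the 40905001 bin, the SMARCE1 bin at 40620001 (7 partners in T0, 1 in T30), the LINC00974 bin at 41545001 (6 and 2), and the bin at 41660001 beyond KRT17 (9 and 1). The last of these had 164 contacts in T0 and 14 in T30. Beside KRT37 and 40910001, the T30 hubs were at 40615001 (3 and 5), 41015001 (0 and 5), 41405001 (0 and 6) and 41535001 (3 and 5). Of the 4 T0 hubs 2 lay outside the range of the cluster, and of the 6 T30 hubs 5 lay inside it. Pooled over 3 bins, 40620001 had 10 and 6 partners, 41660001 had 10 and 5, and 41545001 had 7 and 4. Pooled counts at 40615001, 40620001, 40905001, 40910001 and 41660001 reached 5 in both lists, and those at the other hubs did not. The lack of a common hub thus holds for single 5 kb bins only.

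**Figure D2:**
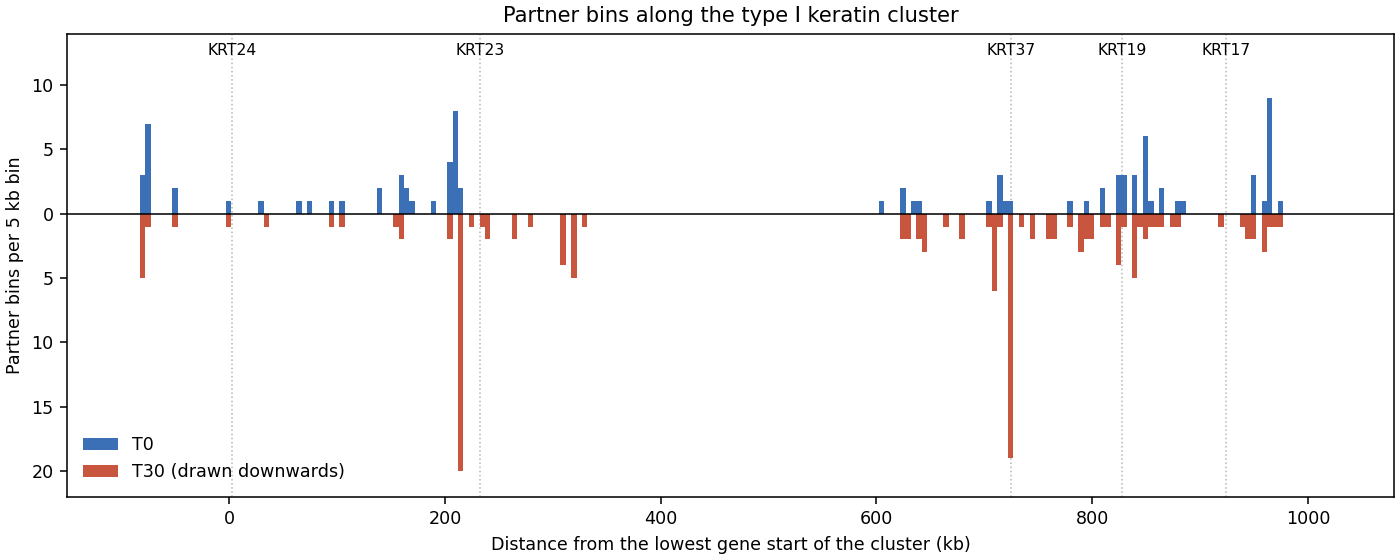
Partner bins of each 5 kb bin along the type I cluster, T0 upwards and T30 downwards, against the distance from the lowest gene start (kb). The T30 bars reach 20 beside KRT23 and 19 at KRT37, and the highest T0 bar is 9, beyond KRT17.

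The type I genes fall in blocks along the chromosome, and the lists differed in how many keratin loops joined each pair of blocks. Within the hair keratin block from KRT33A to KRT36, T0 listed 0 keratin loops and T30 listed 9 with 201 contacts. From that block to the block from KRT13 to KRT17, which holds KRT19 and KRT14, there was 1 loop with 14 contacts in T0 and 7 with 126 in T30. From the block of KRT24 to KRT40 to the hair block the numbers were 1 and 5, with 8 and 90 contacts. The long loops from KRT24 to KRT40 to the KRT13 to KRT17 block went the other way, with 6 in T0 (60 contacts) and 1 in T30 (18 contacts). With loops that end beside the keratin genes counted as well, the orders held. The 2 contrasts that involve KRT24 to KRT40 were then smaller as ratios, but not as differences in loop number. KRT24 to KRT40 then had 4 loops with 50 contacts in T0 and 8 with 129 in T30 to the hair block, and 9 with 96 and 4 with 64 to the KRT13 to KRT17 block. The hair block had 1 with 14 and 9 with 150 to the KRT13 to KRT17 block, and 0 and 9 within itself. Blocks were set by gene position, and most of these added T30 keratin loops end in the single KRT37 bin. Loops at KRT37 were 6 of the 9 within the hair block and 4 of the 7 from it to the KRT13 to KRT17 block. They were also 3 of the 5 from KRT24 to KRT40 to the hair block.

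Among the 27 type I cluster genes, 10 were at a T0 loop and 17 at a T30 loop, with 6 genes at both and 6 at neither. Over all protein-coding genes the shares were 19.7% at T0 loops and 23.4% at T30 loops, and for the type I genes 37.0% and 63.0%. Past the fold rule, 4 genes were higher in T30 and 1 lower, where 11.5% of genes with a loop in either list were higher and 4.89% lower. The type I numbers are 4 and 1 of 21 genes with a loop in either list, and their difference from these shares was not tested. KRT23 had 0 partners in T0 and 4 in T30 (61 contacts), KRT32 had 0 and 4 (75 contacts), and KRT36 had 0 and 3 (54 contacts). KRT12, a keratin of the cornea, had 3 partners with 26 contacts in T0 and 0 in T30. Widened by 10 kb, KRT12 had 5 and 3 partners and was no longer past the rule, and KRT23 had 2 and 21, since the widened KRT23 takes in the 40910001 bin. KRT12 (a difference of -1) and KRT36 (2) also missed the rule with q under 0.01, and KRT32 (2) at bins that hold a gene end.

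**Figure D3:**
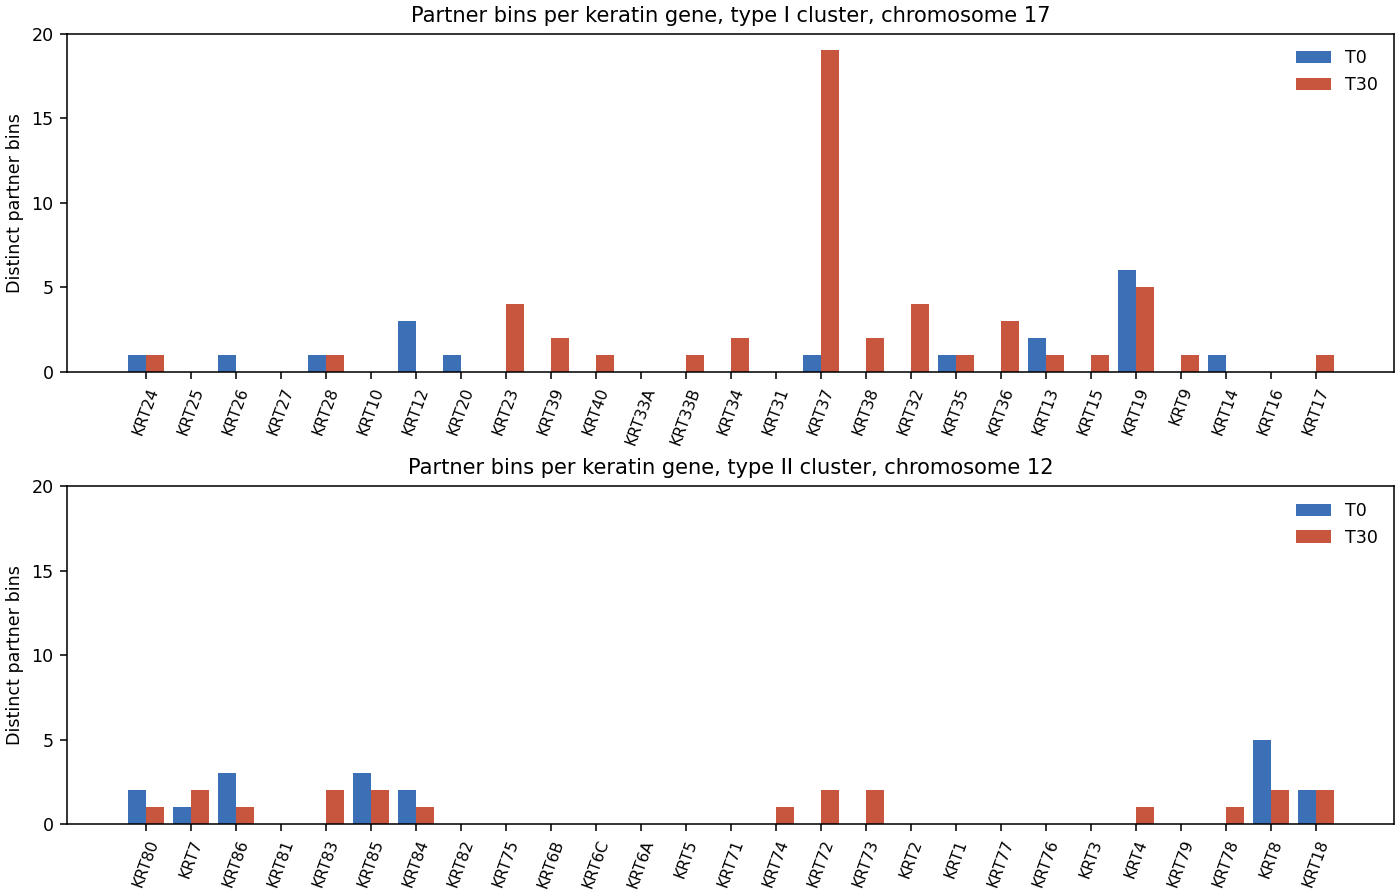
Distinct partner bins of each keratin gene in T0 and T30, genes in chromosome order. KRT37 has 19 bins in T30 against 1 in T0, and no other gene has more than 6 in either list.

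KRT19, the luminal keratin of the type I cluster, had the most loops of any keratin in T0. It had 6 loops with 142 contacts in T0 and 5 with 75 in T30. The type I keratin loops with most contacts in T0 both started in KRT19: 1 of 10 kb with 48 contacts and 1 of 20 kb to LINC00974 with 46. Loops of 10 kb were not listed in T30, whose shortest span was 20 kb. KRT19's partner number was 1 lower in T30, and 2 higher when genes were widened by 10 kb (7 and 9). KRT19 was thus at loops in both lists, and its partners differed little in number. In T0 it was joined to 1 keratin gene, KRT12 at 660 kb with 10 contacts, and in T30 to KRT37 with 18 and KRT32 with 11.

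The basal keratins were at few loops, as were the luminal KRT7 (1 in T0 and 2 in T30) and KRT18 (2 in both). KRT14, the type I partner of KRT5, had 1 loop with 19 contacts in T0, to the bin at 41645001 beyond the cluster, and 0 in T30. KRT17 had 0 in T0 and 1 with 23 contacts in T30, to the pseudogene KRT42P 20 kb away. KRT16, the neighbour of KRT17 and not counted here as basal, had none in either list. With genes widened by 10 kb KRT14 had 2 partners in both lists.

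Other type I genes showed small numbers. KRT13 had 2 partners with 25 contacts in T0 and 1 with 35 in T30, and KRT35 had 1 in both, with 8 and 16 contacts. KRT34, KRT38 and KRT39 had 0 in T0 and 2 in T30, and KRT33B, KRT40, KRT15 and KRT9 had 0 and 1. KRT26, a root sheath keratin, and KRT20, a keratin of gut epithelium, had 1 and 0. KRT24 and KRT28 had 1 partner in each list, both joined to the SMARCE1 side. No loop was listed at KRT25, KRT27, KRT10, KRT33A, KRT31 or KRT16.

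Loops that left the type I cluster reached a short way. Below it, 4 loops in T0 (70 contacts) and 3 in T30 (37 contacts) ended 48 to 78 kb away, in or beside SMARCE1, which encodes a subunit of the SWI/SNF chromatin remodeller. The SMARCE1 loops joined KRT28 (26 contacts in T0, 15 in T30), KRT24 (21 and 12), KRT26 (15 in T0 alone) and KRT37 (8 and 10). Above it, 3 loops in T0 (43 contacts) and 5 in T30 (75 contacts) ended 10.4 to 35.4 kb away, in bins without a protein-coding gene. SMARCE1 was the sole protein-coding gene that a leaving loop of this cluster reached.

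The type II cluster had 15 keratin loops in each list (Poisson interval 8.40 to 24.7), a ratio of 1 (0.456 to 2.20), with fewer contacts in T30. Equal numbers depend on the setting: lists of equal length gave 15 in T0 and 10 in T30, and bins that hold a gene end gave 8 and 11. Loops of chromosome 12 with no end in the cluster gave a ratio of 0.918 (0.816 to 1.03). Contacts summed to 303 in T0 and 194 in T30, a ratio of 0.640 (0.532 to 0.769). Loops matched between the whole lists, described below, had a median ratio of 0.667, while the summed contacts of the lists had 1.06. The type II ratio was not tested against either. A loop held 8 to 35 contacts in T0, with a median of 17, and 9 to 19 in T30, with a median of 12. T0 loops had a median span of 85 kb and T30 loops one of 140 kb, the reverse of the order in the lists as a whole.

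Within the range of the genes themselves, more of these loops stayed inside the cluster in T30. Both ends lay inside in 7 of 15 in T0 (46.7%, 21.3 to 73.4%) and in 13 of 15 in T30 (86.7%, 59.5 to 98.3%), so the intervals overlap. Loops joining keratin to keratin numbered 3 and 7. With all loops that touch the range counted, whether at a keratin gene or not, there were 24 in each list, of which 8 and 17 had both ends in the range. With the range widened by 50 kb, however, the order was reversed: all 15 T0 loops and 93.3% of the T30 loops counted as inside. The loops that left the range in T0 thus ended close to its edges.

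**Figure D4:**
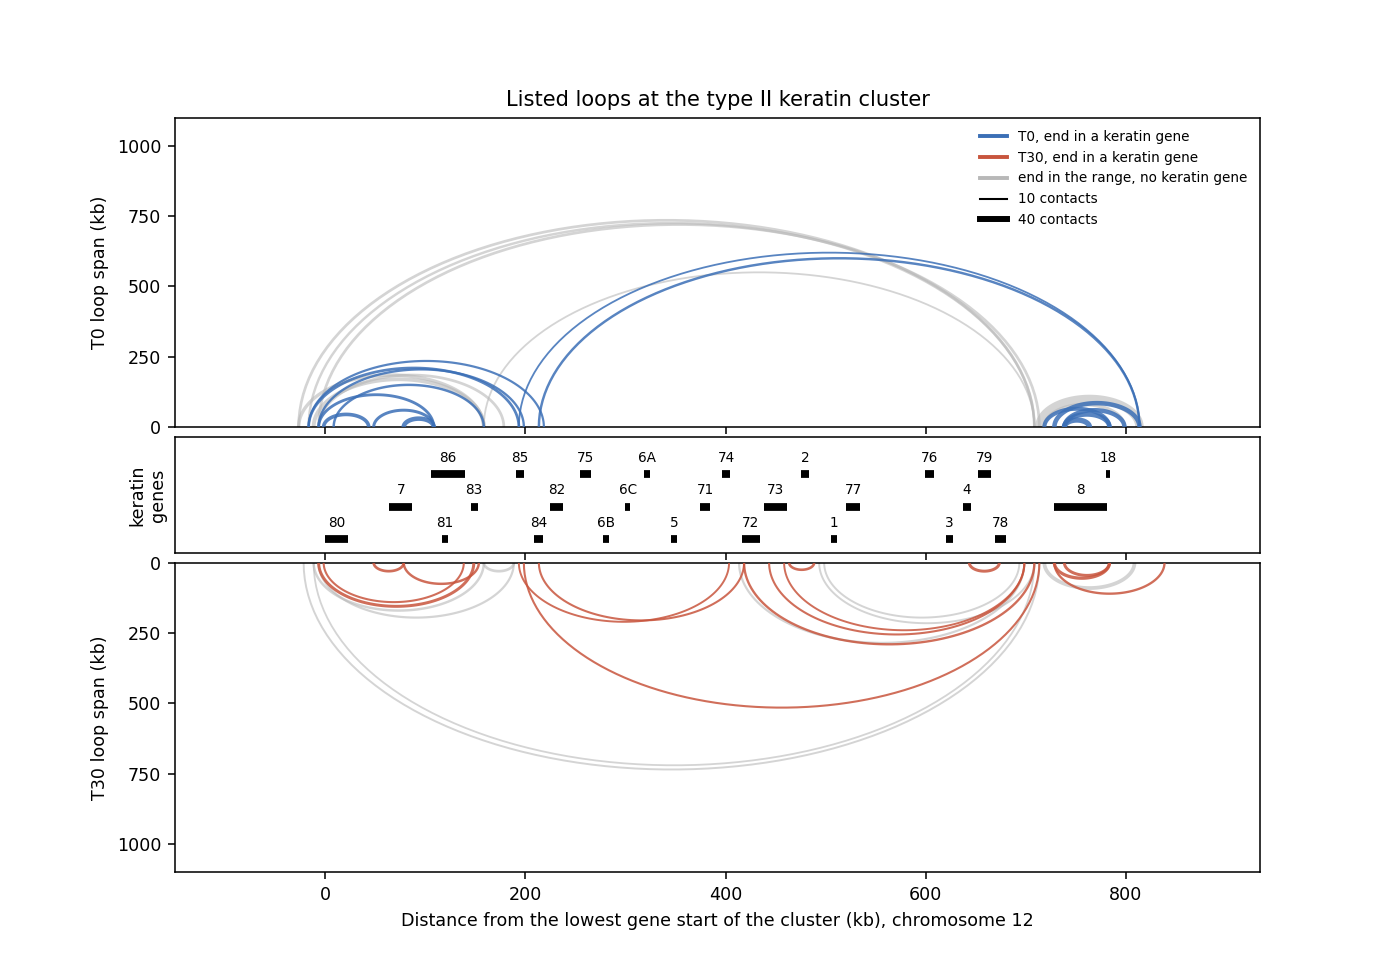
Listed loops at the type II keratin cluster, drawn as for the type I cluster: arcs join the bins of a loop along the distance from the lowest gene start (kb), height is the span (kb) and line width grows with contacts. T0 arcs crowd at the KRT80 and KRT8 ends, 15 coloured arcs in each list, and the T30 arcs also reach KRT71 to KRT78.

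KRT8 and KRT18, the pair that marks luminal cells, lie next to each other at the upper end of the cluster. KRT8 had 4 loops with 122 contacts and 5 partners in T0, and 3 loops with 48 contacts and 2 partners in T30. It passed the fold rule as lower, the single type II cluster gene past it, and none was higher. The T0 partners of KRT8 include both bins of 1 loop that lies inside KRT8 itself, and the rule was not applied without them. The KRT8 call was lost with genes widened by 10 kb (6 and 5 partners) and with q under 0.01 (a difference of -1). The widened genes past the rule were KRT72 and KRT2 as higher (0 and 3 partners each) and KRT81 as lower (3 and 0), named after their values were seen. At bins that hold an end of the gene, KRT8 had 1 partner in T0 and 2 in T30, so the direction depends on how the gene is drawn, since the RefSeq body of KRT8 is 52670 bp long and overlaps that of KRT18. KRT18 had 2 loops in both lists, with 55 contacts in T0 and 36 in T30.

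KRT8 and KRT18 were joined to each other in both lists, by 1 loop with 30 contacts in T0 and by 2 with 19 and 17 contacts in T30. Among the type II keratin loops of T0, that with most contacts, 35, had both ends inside KRT8. In T0, KRT8 was also joined to the bin at 52980001 with 29 contacts and to that at 52965001 with 28, both above KRT18. In T30 its 1 leaving loop ended at EIF4B, a translation initiation factor gene, with 12 contacts.

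At the lower end, KRT7, a luminal keratin, had 1 loop with 29 contacts in T0 and 2 with 28 in T30. Its T0 loop went to KRT86 at 30 kb, and its T30 loops went to KRT83 at 75 kb with 13 contacts and to LINC00592 with 15. KRT86, a hair keratin whose annotated body also spans KRT81, had 3 partners with 62 contacts in T0 and 1 with 10 in T30. KRT85 had 3 and 2 partners, KRT84 had 2 and 1, KRT80 had 2 and 1, and KRT83 had 0 and 2. None of these 6 genes passed the fold rule.

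The middle of the type II cluster differed by list. KRT72 and KRT73, root sheath keratins, had 0 partners in T0 and 2 in T30, and KRT74, KRT4 and KRT78 had 0 and 1. Contacts at these genes in T30 were 22 at KRT72, 33 at KRT73, 9 at KRT74 and 17 at both KRT4 and KRT78, which were joined to each other. The authors' q-values of these loops ran from 0.00024 (at KRT72) to 0.0486 (at KRT73), the latter near the list limit of 0.05. How many of them stay in lists of equal length was not counted. Between hair and root sheath keratins, KRT85 was joined to KRT74 at 210 kb with 9 contacts and KRT84 to KRT72 at 205 kb with 10. All 7 genes of this cluster at a T0 loop (25.9% of 27) were among the 13 at a T30 loop (48.1%), and 14 had none in either list. Among the 14 were KRT5, the basal keratin, with KRT6A, KRT6B and KRT6C, keratins of activated skin, and KRT1 and KRT2 of the epidermis. With genes widened by 10 kb, KRT5 and the 3 KRT6 genes still had none.

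Hub bins on chromosome 12 numbered 2 in T0 and 0 in T30, and both lay just outside the range. Bins there with any partner numbered 25 in T0 and 35 in T30, and the share of hubs over the whole lists was not counted. The bin at 52160001, 3996 bp from KRT80, had 5 partners with 67 contacts in T0 and 2 with 28 in T30. The bin at 52980001, between KRT18 and EIF4B, had 6 with 126 and 0. Pooled over 3 bins they had 7 and 5 partners and 6 and 1. The 52980001 bin was joined in T0 to KRT8, KRT84 and KRT85, and the hub near KRT80 to KRT85 and KRT86. In T0, the leaving loops were thus those that joined KRT8, KRT84, KRT85 and KRT86 to these hubs and their neighbours at 52150001 and 52965001, with 54 contacts below and 78 above.

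Loops listed in both libraries, meaning that at each end the merged ranges shared 1 bp or more, were a minority in each cluster. At the type I keratins they were 6 of 17 in T0 (35.3%, 14.2 to 61.7%) and 9 of 40 in T30 (22.5%, 10.8 to 38.5%). At the type II keratins they were 4 of 15 (26.7%, 7.79 to 55.1%) and 3 of 15 (20%, 4.33 to 48.1%). Over all loops the shares were 22.2% and 16.4%, inside each of these intervals. Most loops of 1 list alone had contacts no lower than the lowest in the other list at a like span, which is a low bar. Of the 31 type I loops listed in T30 alone, 30 had at least as many contacts as the lowest loop of the T0 list within 5 kb of the same span. The same held for 11 of 12 type II loops of T30 alone and 11 of 11 of T0 alone, and for 10 of 11 type I loops of T0 alone, the other having a span that T30 did not list. The share over all loops of 1 list alone was not counted. These counts therefore cannot tell whether such a loop was absent from the other library or only unlisted.

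Contacts could be compared in 11 matched pairs of loops with an end in a keratin gene in either list. Each pair was compared with the median T30 to T0 ratio of all 1389 matched pairs, 0.667, by an exact two-sided binomial test, adjusted by Benjamini-Hochberg over all pairs. The test sets 1 library against another and says nothing of replicate cultures. At the type I keratins 1 of 8 pairs was called higher in T30 and 0 lower, beside 1.58% higher and 0.072% lower over all pairs. The called pair joined the 40905001 bin to the bin below KRT37 in T0, with 10 contacts, and the 40910001 bin to KRT37 in T30, with 44. Its scaled log2 ratio was 2.72 (1.71 to 3.88), with an adjusted p of 1.95e-07 by the exact binomial test (0.00118 and 0.000941 under the other scalings). Both ends differ by 1 bin between the lists, so the pair compares neighbouring bins. Neither of its T0 bins overlaps a keratin gene, so it is among the 8 only through T30, where it was higher. The 1 of 8 can therefore not be read against the share over all pairs. With identical bins 0 of 3 keratin pairs were called. The merged clusters that hold these bin pairs summed to 78 contacts in T0 and 164 in T30. That ratio is smaller than the ratio of the bin pairs, and was not tested.

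A second type I pair was at least 2-fold higher, beside 4.54% of all pairs that were at least 2-fold higher and 1.22% lower. It ran from 40905001 to KRT13 in T0 with 13 contacts, and from 40910001 to KRT15 in T30 with 18, a scaled log2 ratio of 1.05 (-0.06 to 2.21) and an adjusted p of 0.632 by the exact binomial test. The loop from KRT37 to the bin beside SMARCE1, at identical bins, had 8 and 10 contacts, a scaled log2 ratio of 0.91 (-0.59 to 2.45). KRT19 with LINC00974 had 46 and 23, a scaled log2 ratio of -0.42 (-1.21 to 0.34), and was called lower when scaled by summed contacts instead. Under that scaling 127 of all 1389 pairs were called lower and 6 higher. None of the 3 type II pairs was called: KRT8 with KRT18 at identical bins had 30 and 17 contacts, a scaled log2 ratio of -0.23 (-1.18 to 0.67).

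**Figure D5:**
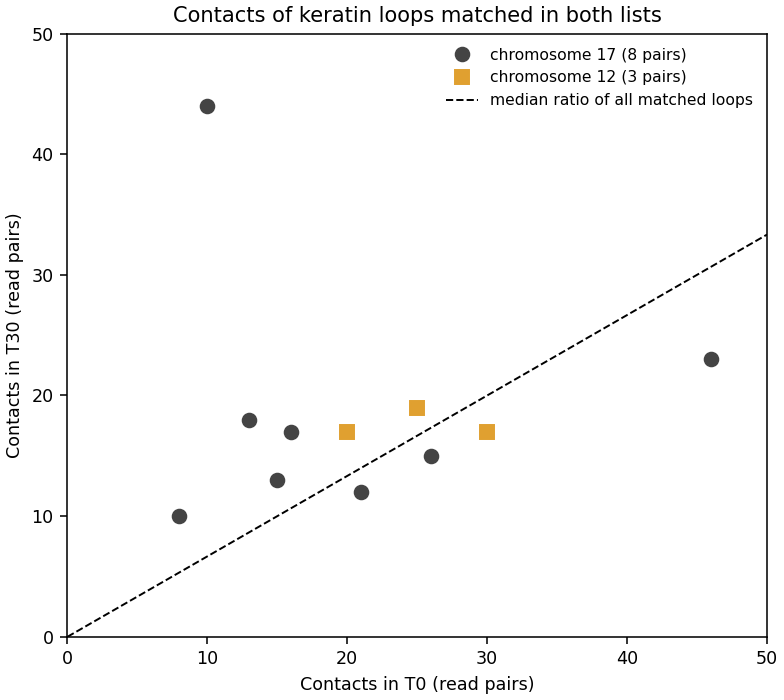
Contacts (read pairs) in T30 against T0 for the 11 matched pairs of loops with an end in a keratin gene in either list. Circles are for chromosome 17 and squares for chromosome 12. The dashed line is the median ratio of all matched loops, 0.667. The pair with 10 contacts in T0 and 44 in T30 stands farthest above the line.

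Some keratin promoters lay in the listed bins themselves. Of the 34 genes with an entry, 8 had a window in a bin of any listed loop in T0 and 8 in T30 (23.5% each), beside 9.88% and 10.2% of 15842 protein-coding genes with an entry, and this difference was not tested. In a bin of a keratin loop, 6 had a window in T0, 7 in T30 and 23 in neither. The 6 were KRT85, KRT84, KRT26, KRT12, KRT20 and KRT37, and the 7 were KRT85, KRT74, KRT4, KRT37, KRT38, KRT36 and KRT9. KRT37 and KRT85 were in both sets. The KRT35 window shown above, with its core motif, lay outside the bin by which KRT35 was joined to KRT37.

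Genes that work with keratins were described in the same way, to be read beside the shares over all protein-coding genes: 19.7% at T0 loops and 23.4% at T30 loops, and, of genes with a loop in either list, 11.5% past the rule as higher and 4.89% as lower. Of the 34 keratin-associated protein genes inside the type I cluster, 1 was at a T0 loop and 3 at T30 loops, and KRTAP3-1 passed the fold rule with 0 and 4 partners. Of 15 other intermediate filament genes, 7 and 9 had a loop. In that list LMNA, a nuclear lamin gene, had 3 and 4 partners and VIM, the mesenchymal filament gene, 1 and 0, and BFSP1, a lens filament gene, was past the rule as lower with 4 and 1. Of 16 genes of desmosomes and filament linkers, which tie keratin filaments to cell junctions, 5 and 4 had a loop. Past the rule there were PKP1 (0 and 9 partners), EVPL (2 and 6) and PLEC (4 and 9), all higher, 3 of the 6 with a loop in either list, while DSP had 1 and 3 and JUP, which lies on chromosome 17 above the type I cluster, 1 and 0. Of 16 cornified envelope genes, 2 and 3 had a loop and none passed the rule.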

How the data were processed

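Loops were measured by HiChIP for the progesterone receptor in 1 T0 and 1 T30 library of T47D cells, per the labels. The deposited contacts are whole-number counts of read pairs per pair of 5 kb bins, and carry no normalization, as the file headers and whole numbers show. Each loop's p-value and q-value are the authors' own, from a model with bias correction per the file headers, and the lists hold loops with a q-value up to 0.05, with near contacts merged. A fraction that the authors give for each merged cluster, per the file headers, was not used in any result. Other deposited columns hold positions. The submitters' processing notes name Bowtie, hg38 and GRCh38; how they were used is not given in the sources used here.

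Genes and promoters came from RefSeq tables of GRCh38.p14, in which all 54 keratins were found, 34 of them with a promoter. Partners are the distinct bins at the other end of a gene's loops, so a loop within a gene counts both of its bins. Loops were matched between the lists in pairs by overlapping merged ranges, with the smallest shift taken. Poisson and binomial intervals are exact at 95%, treat loops as independent although loops share bins, and cover counting error only, since read pairs need not be independent molecules. No test of a difference in loop number between conditions was made.

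The text names keratin genes with 5 or more partners in either list, KRT8, KRT18, KRT19, KRT7, KRT5, KRT14 and KRT17, bins with 5 or more partners, the loops with most contacts, matched loops past 2-fold, the outer ends, and the other members with a loop. The members and lists were chosen with earlier results of these data known. The TATAAA search, the comparisons of promoters and the gene blocks, with keratin loops and with all loops, were added after the data were seen. Other settings were q under 0.01, at least 10 contacts, spans of at least 20 kb, lists of equal length, other gene, range and bin definitions, and other scalings. The scripts were tested on simulated data. Versions were scipy 1.17.1, pandas 2.3.3, numpy 2.4.6 and matplotlib 3.10.9 under Python 3.11.15.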

Additional observations from a re-analysis of the deposited data

How the results depend on the processing

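No paired analysis was possible because each condition had 1 library. Loops at the type I keratins in T0 and T30 kept the order of more in T30 under each setting run: widened genes gave 33 and 66, and any end in the range, added after the data were seen, gave 41 and 69. In T0 they numbered 10 with q under 0.01 and 11 with at least 10 contacts, and without KRT37, also added, T30 had 21. At the type II keratins both lists gave 9 loops with q under 0.01, 23 with widened genes and 24 with any end in the range, gene ends gave 8 in T0 and 11 in T30, lists of equal length 15 and 10, and at least 10 contacts 14 and 13. With the ranges widened by 50 kb, loops inside were 88.2% (T0) and 95% (T30) at the type I keratins. At the type II keratins they were 100% (T0) and 93.3% (T30), the reverse of the order without widening. Pooling 3 bins gave 13 and 18 hubs on chromosome 17 and 6 and 3 on chromosome 12, where q under 0.01 left 0 in T0. With identical bins, 11.8% and 5% of type I loops (T0, T30) and 6.67% of type II loops in T0 were in both lists. Scaling by summed contacts moved the median of all matched loops by -0.67 (log2). It called 1 keratin pair higher and 1 lower, where 6 of all 1389 pairs were called higher and 127 lower. Identical bins left 0 called higher among 3 keratin pairs, and the unscaled comparison called 1 higher. The called KRT37 pair had a log2 ratio of 2.05 under summed contacts and 2.14 unscaled. KRT8's difference of -3 partners became 1 at gene ends, and its call was lost with widened genes and with q under 0.01 (-1 in both). Calls were also lost for KRT12 (-2 and -1 in these settings), KRT36 with q under 0.01 (2) and KRT32 at gene ends (2). The cause of these changes was not tested. Another 37 counts and shares stayed within 1.5-fold or within their interval, and 43 values of named genes and of the KRT37 pair kept their side of the rule. Depth, unknown here, and 1 library per condition limit every number above.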
